A study of Mus musculus with 6 samples.

Results

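The acyl-CoA thioesterases of mouse liver, the Acot family, were examined in livers of mice on a regular or a soy-enriched diet. Members were the genes Acot1, Acot2, Acot3, Acot4, Acot5, Acot6, Acot8, Acot9, Acot12 and Acot13, found on the array through the RefSeq accession that the design gives each probe. These 10 genes held 13 of the 32994 probes with a gene symbol, which belong to 22911 genes. Acyl-CoA thioesterases cut fatty acids and bile acid precursors loose from coenzyme A, so that free acid and free coenzyme A are returned. Cells hold separate sets of them in the cytosol, the mitochondria and the peroxisomes, where long, very long and branched acyl chains are shortened. The type I enzymes share 1 fold and come from a tandem cluster of genes, whereas the type II enzymes are unrelated to them in structure and come from scattered genes. Several type I genes are well known in rodent liver as targets of the nuclear receptor PPARA, which fasting and fibrate drugs activate.

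Both groups were male mice, 12 weeks old, that ate freely for 28 days. The 3 control mice received regular food alone, and for the 3 soy mice 25% of the food was replaced by soy bean powder. The strain is not given in the sources used here, no genetic change is stated, and each mouse gave 1 liver RNA sample for 1 single-colour Agilent G3 Mouse v2 array. Soy powder brings protein, fat, fibre and isoflavones together, so their shares in a difference cannot be told apart. Signals below are log2 values after background correction and quantile normalization, a change is soy minus control on that scale, and its SE and adjusted p come from limma over all 56605 probes. The call needed a fold change above 1.5 or under 0.66 beside an adjusted p under 0.05. The p-values measure the spread between these mice. Where a gene had several probes, the one of highest mean signal stands for it, and levels of different probes are not set against each other.

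The arrays differed in ways that run with the diet. Of 59305 spots, 37010, 36366 and 38163 exceeded background clearly in the controls, but in soy 31308, 31988 and 32498 did. Control 1, control 2 and soy 1 were on slide 1, soy 2 was alone on slide 2, and control 3 and soy 3 shared slide 3. Changes within slide 1 and slide 3 are therefore given for the genes that moved. Whether the lower number of detected spots has a part in any change was not tested. Every Acot gene except Acot6 was well above background on all 6 arrays, and no Acot spot was saturated. Alb, which encodes the albumin made by hepatocytes, read 18.99, 18.99 and 19.02 in control and 18.99, 18.93 and 18.66 in soy livers. Quantile normalization gives spots of equal rank the same value on every array, so a probe this bright has little room to rise. In a whole liver, fewer cells of a type and less RNA per cell cannot be told apart.

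The type I genes Acot1 to Acot6 lie side by side on chromosome 12, where the RefSeq table (GRCm38.p6) orders them as Acot2, Acot1, Acot4, Acot3, Acot5 and Acot6. The 250 bases upstream of the transcription start are shown for the first 5 of these, because on their brightest probe each was detected on all arrays and higher on every soy array, Acot3 without a call. All are on the plus strand, at chr12:83987611-83987860 (Acot2), chr12:84009252-84009501 (Acot1), chr12:84038129-84038378 (Acot4), chr12:84051894-84052143 (Acot3) and chr12:84069074-84069323 (Acot5). Capitals mark the hexamer AGGTCA, which nuclear receptors read, found here as its reverse complement TGACCT.
Acot2: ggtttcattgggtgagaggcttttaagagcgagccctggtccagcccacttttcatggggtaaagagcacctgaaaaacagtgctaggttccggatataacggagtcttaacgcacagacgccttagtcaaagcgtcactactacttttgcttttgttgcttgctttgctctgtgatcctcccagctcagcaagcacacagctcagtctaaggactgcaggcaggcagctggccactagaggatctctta
Acot1: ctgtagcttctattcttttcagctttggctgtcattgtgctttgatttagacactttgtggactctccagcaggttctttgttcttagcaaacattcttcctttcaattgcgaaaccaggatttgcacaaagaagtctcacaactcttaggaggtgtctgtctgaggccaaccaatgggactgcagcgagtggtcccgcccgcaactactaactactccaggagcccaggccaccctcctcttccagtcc
Acot4: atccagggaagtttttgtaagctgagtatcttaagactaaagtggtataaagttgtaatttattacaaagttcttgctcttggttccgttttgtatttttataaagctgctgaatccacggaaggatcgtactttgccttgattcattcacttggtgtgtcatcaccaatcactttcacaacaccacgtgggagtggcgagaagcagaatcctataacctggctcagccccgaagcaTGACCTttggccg
Acot3: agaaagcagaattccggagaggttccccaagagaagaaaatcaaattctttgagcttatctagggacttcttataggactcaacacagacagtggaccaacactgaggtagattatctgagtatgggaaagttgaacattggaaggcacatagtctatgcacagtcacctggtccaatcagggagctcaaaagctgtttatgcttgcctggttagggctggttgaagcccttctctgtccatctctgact
Acot5: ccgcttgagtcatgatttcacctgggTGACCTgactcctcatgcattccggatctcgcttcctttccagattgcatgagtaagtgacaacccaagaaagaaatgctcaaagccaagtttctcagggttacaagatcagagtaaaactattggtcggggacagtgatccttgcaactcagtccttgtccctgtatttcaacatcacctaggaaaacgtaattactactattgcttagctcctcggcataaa
The PPARA response element was searched as AGGTCANAGGTCA, a direct repeat of the hexamer, and both motifs were searched on both strands of these 250 bases in each RefSeq record. RefSeq records were matched for 8 of the 10 genes, not for Acot6 and Acot13. The repeat was in 0 of these 8 promoters and in 0.0335% of 32851 promoters. The hexamer, which the repeat contains, was in 3 of the 8, those of Acot4, Acot5 and Acot12, and in 14% of all promoters. A match is a description of letters, and its absence says only that these letters are not in this window.

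Of the 10 Acot genes, 4 were called, and all 4 were higher in soy livers. The background was 0.458% of genes called by their brightest probe, and 0.288% called higher. By any probe the count was again 4, beside 0.532%. Acot1, Acot2, Acot4 and Acot5 rose, 9 of the 10 had a positive change (48.8% of all named genes did), and only Acot9 lay just below 0. In 7 genes every soy array lay above every control array, against 9.66% of all named genes, though Acot6, 1 of these 7, was near background. The median change of the family was 0.86, beside -0.01 for all named genes. No filter on low signal was applied, so all 13 probes entered the test, and 7 of them had an unadjusted p under 0.05, as 11.5% of all probes did. With slide as a block in limma 0 of the 10 genes were called, as 0.0442% of all probes were, and the adjusted p of the 4 genes then lay between 0.0986 and 0.157. Their changes under the block were 1.73 for Acot1, 1.41 for Acot2, 1.29 for Acot4 and 1.45 for Acot5. With a normexp offset of 16 in the background correction only Acot2 was called, when 77 of all probes were. The replicate number as a block also left only Acot2, when 78 of all probes were called. The processed signal and the test of only probes well above background each gave 5 genes, when 23.2% and 1.54% of the probes tested were called.

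**Figure D1:**
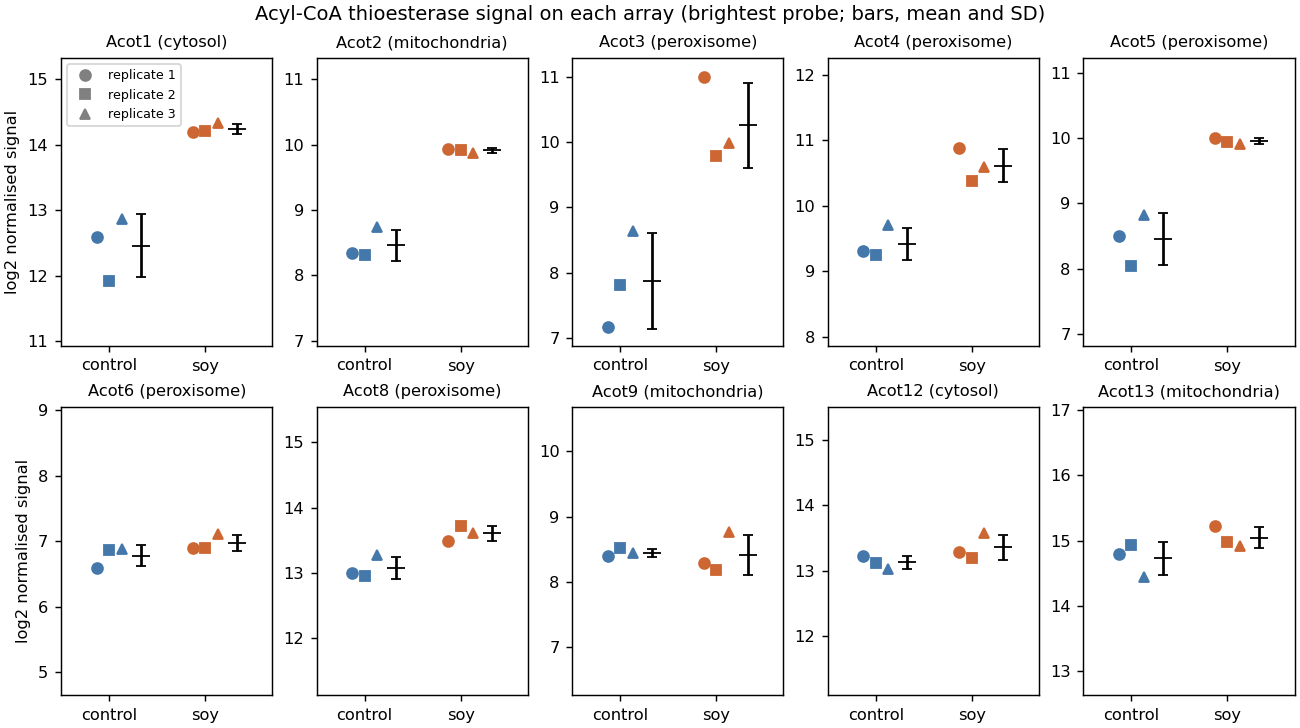
Log2 normalised signal of the brightest probe of each of the 10 Acot genes (y axis, the same span in each panel) in control and soy livers (x axis), with 1 point per mouse, its symbol giving the replicate number within the group, and a bar at the mean ± SD of 3. The soy points lie above all control points in Acot1, Acot2, Acot3, Acot4, Acot5, Acot6 and Acot8, and the points overlap in Acot9, Acot12 and Acot13.

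Acot1 encodes the cytosolic type I enzyme, which acts on long-chain acyl-CoAs. Its probe (NM_012006) read 12.59, 11.92 and 12.87 in the control livers and 14.19, 14.21 and 14.33 in the soy livers. The soy livers lay within a narrow band above all control livers, among which control 2 was lowest. Acot1 rose from 12.46 ± 0.49 to 14.24 ± 0.077 (SD, n = 3), or 3.45-fold, which is 1.79 on the log2 scale (SE 0.22, adjusted p = 0.0313). The 95% interval of the change was 1.26 to 2.31. Within slides the change was 1.93 on slide 1 and 1.46 on slide 3. With 1 array left out Acot1 was called without control 2 and without control 3, but not without control 1, soy 1, soy 2 or soy 3 (adjusted p = 0.0774 to 0.124).

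Acot2 encodes the mitochondrial type I enzyme, closely similar to the product of Acot1. Signals of its probe (NM_134188) were 8.35, 8.31 and 8.74 in control and 9.94, 9.92 and 9.87 in soy livers. Each soy liver was above each control liver, and the soy values were almost equal. Acot2 rose from 8.46 ± 0.24 to 9.91 ± 0.034 (SD, n = 3), by 1.45 (SE 0.13, adjusted p = 0.0130) or 2.73-fold. The change was 1.61 on slide 1 and 1.14 on slide 3. Acot2 was called with any 1 control array left out, but not without soy 1 (adjusted p = 0.0561), soy 2 (0.0695) or soy 3 (0.0556).

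Acot3, Acot4, Acot5 and Acot6 encode the peroxisomal type I enzymes. Acot3, active on long and very long acyl chains, had the largest change of the family but the widest spread. Its probe (NM_134246) read 7.18, 7.81 and 8.65 in control and 10.99, 9.78 and 9.99 in soy livers. The groups did not overlap, with soy 1 highest and control 1 lowest. The change was 2.38 (SE 0.42, 5.19-fold) with an adjusted p of 0.0760, so Acot3 was not called. It was 3.50 on slide 1, which holds both extreme arrays, and 1.35 on slide 3. Among the alternative settings, Acot3 was called with only probes well above background tested (adjusted p = 0.0394), when 1.54% of these probes were called, and with the Agilent processed signal (0.0121), when 23.2% of all probes were. Over all alternatives its adjusted p ran from 0.0121 to 0.221.

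Acot4, whose enzyme releases succinate and glutarate from coenzyme A, had 2 probes. The brighter (NM_134247) read 9.31, 9.24 and 9.70 in control and 10.88, 10.38 and 10.59 in soy livers. The groups were apart, and the gap between the highest control and the lowest soy liver was smaller than for Acot1 or Acot2. Acot4 rose by 1.20 (SE 0.17, adjusted p = 0.0457) or 2.29-fold, by 1.60 on slide 1 and 0.88 on slide 3. The dimmer probe read 8.18, 8.19 and 8.61 against 9.39, 8.82 and 8.90, again without overlap, and its change of 0.71 was not called (SE 0.19, adjusted p = 0.195). As the mean of both probes the change was 0.95 and was not called (adjusted p = 0.0758). The call of the brighter probe held with control 3 left out (adjusted p = 0.0428) and was lost with any other array left out (0.106 to 0.152).

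Acot5 encodes a peroxisomal enzyme for medium-chain acyl-CoAs, and its probes disagreed. The brighter (NM_145444) read 8.50, 8.04 and 8.83 in control and 10.002, 9.94 and 9.91 in soy livers. On this probe the soy livers again formed a narrow band above the controls. Acot5 rose on it by 1.49 (SE 0.19, adjusted p = 0.0313) or 2.82-fold, by 1.73 on slide 1 and 1.08 on slide 3. The dimmer probe read 7.82, 7.56 and 7.74 in control and 7.31, 7.62 and 7.51 in soy livers. Its groups overlapped, and it changed by -0.23 (SE 0.12, adjusted p = 0.540). The direction of Acot5 thus rests on 1 probe. As the mean of both probes the change was 0.63 and was not called (adjusted p = 0.107). With 1 array left out the brighter probe was called without control 2 and without control 3, but not without control 1 (adjusted p = 0.0836), soy 1 (0.103), soy 2 (0.128) or soy 3 (0.120).

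Acot6, the last gene of the cluster, was near the detection limit. Its brighter probe (NM_172580) read 6.59, 6.86 and 6.88 in control and 6.90, 6.89 and 7.11 in soy livers. That probe was well above background on 2 control arrays and on no soy array, although its soy values were the higher ones. Its fitted change of 0.19 is therefore not read as a fold change (adjusted p = 0.617). The other probe read 6.79, 6.72 and 6.36 against 6.29, 6.47 and 6.20, with overlap (adjusted p = 0.482). Of the 6 arrays only 1, a control, detected it. A change of Acot6 was not detectable at these signals.

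In the order along the chromosome, the called genes Acot2, Acot1 and Acot4 came first, then Acot3, which was not called, then Acot5, which was. From Acot2 to Acot6 the changes were 1.45, 1.79, 1.20, 2.38, 1.49 and 0.19. Of these, 0.19 is the fitted value of Acot6, which no soy array detected. Among the 3 nearest genes with a probe on either side 0 were called. On the near side of Acot2, Papln was well above background on 1 control array and on no soy array. Numb, an inhibitor of Notch signalling, changed by 0.22 (adjusted p = 0.469) and Riox1, which encodes a histone demethylase, by -0.35 (adjusted p = 0.423). Beyond Acot6, Dnal1 and Pnma1 were well above background on no array, and Mideas changed by -0.10 (adjusted p = 0.875). Riox1 was lower on each soy array and Numb higher on each, whereas the groups of Mideas overlapped. Gm40474 and Gm8385, which the table places within the cluster, had no probe by this match. The probe sequences were not used here, so whether a probe also binds the transcript of a paralogue was not tested.

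**Figure D2:**
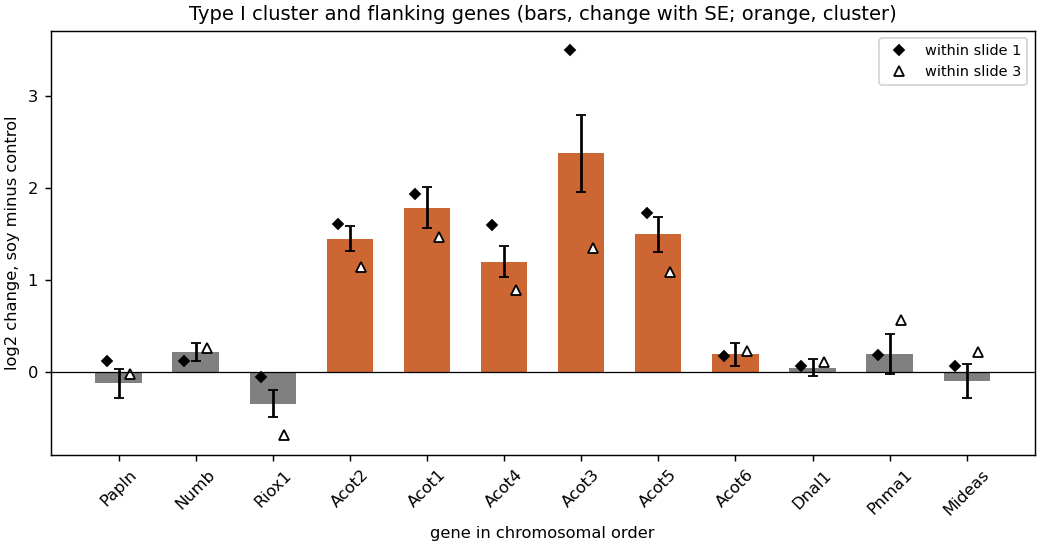
Change in log2 normalised signal (soy minus control, y axis, columns with the SE, and symbols for the change within slide 1 and slide 3) of the 6 type I genes and the 3 nearest measured genes on each side, in chromosome order (x axis). The columns of Acot2, Acot1, Acot4, Acot3 and Acot5 reach 1.20 to 2.38, and those of Acot6 and the flanking genes lie between -0.35 and 0.22, where Acot6, Papln, Dnal1 and Pnma1 were detected on no soy array.

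None of the type II genes was called. Acot8 encodes the broad peroxisomal thioesterase that also acts on bile acid precursors. Its probe (NM_133240) read 12.9997, 12.95 and 13.27 in control and 13.49, 13.72 and 13.61 in soy livers. Every soy liver was above every control liver, by a small step. The change was 0.53 (SE 0.12, adjusted p = 0.149), not called, with a 95% interval of 0.24 to 0.82, and it was 0.51 on slide 1 and 0.34 on slide 3.

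Acot12, the cytosolic enzyme that hydrolyses acetyl-CoA, read 13.23, 13.13 and 13.03 in control and 13.29, 13.20 and 13.58 in soy livers (NM_028790). The groups overlapped through soy 2, while soy 1 and soy 3 lay above all controls. The change was 0.23 (SE 0.13, adjusted p = 0.554), with a 95% interval of -0.068 to 0.53. Acot13, a small mitochondrial enzyme of the hotdog fold, read 14.79, 14.94 and 14.45 in control and 15.23, 14.99 and 14.92 in soy livers (NM_025790). Here control 2 lay above soy 3, so the groups overlapped. Its change was 0.32 (SE 0.15, adjusted p = 0.485), with a 95% interval of -0.037 to 0.67. Acot9, also mitochondrial, read 8.39, 8.52 and 8.43 in control and 8.29, 8.18 and 8.77 in soy livers (NM_019736). Soy 2 was the lowest and soy 3 the highest of all 6. The change was -0.037 (SE 0.16, adjusted p = 0.951), with a 95% interval of -0.41 to 0.33, and its sign differed between slide 1 (-0.17) and slide 3 (0.33).

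By compartment, each of the 3 held at least 1 called gene. In the cytosol Acot1 was called and Acot12 was not, with a median change of 1.01 over the 2 genes. Of the mitochondrial genes Acot2 was called and Acot9 and Acot13 were not, with a median of 0.32 over 3. The peroxisome had 5 genes, of which Acot4 and Acot5 were called and all 5, Acot6 near background among them, were higher on every soy array, with a median of 1.20 and a highest change of 2.38. By structure, 4 of the 6 type I genes were called and all 6 were without overlap, with a median of 1.47. Acot6 enters these counts and medians with its fitted value. Of the 4 type II genes 0 were called, with a median of 0.27, while Acot8 was without overlap. At an unadjusted p under 0.05 Acot8 was the one type II gene in limma.

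**Figure D3:**
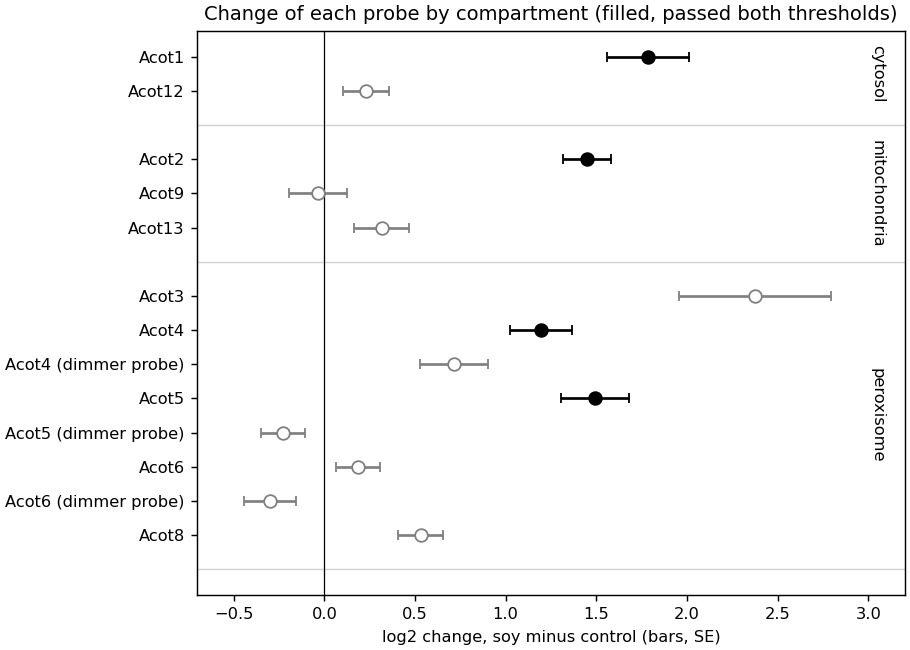
Change in log2 normalised signal (soy minus control, x axis, bars show the SE) for each Acot gene, grouped by compartment (y axis), with called genes filled. In each compartment a type I gene lies furthest to the right, at 1.79 in the cytosol, 1.45 in the mitochondria and 2.38 in the peroxisomes.

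Changes were compared between paralogues as the difference of their log2 signals on each array, with an exact two-sided permutation test of the 3 control against the 3 soy arrays. The 45 pairs were adjusted together. Of the 36 pairs without Acot6, which no soy array detected, 26 had no overlap between the groups, beside 27.3% of all pairs of named genes detected on all arrays. Such a test cannot give a p below 0.10, and the smallest adjusted p was 0.141, so no pair could reach 0.05 and the pairs are described by overlap. In the cytosol the change of Acot1 exceeded that of Acot12 by 1.56, and the soy and control arrays did not overlap (exact p = 0.10, adjusted p = 0.141). In the mitochondria Acot2 exceeded Acot9 by 1.48 and Acot13 by 1.13, both without overlap. Among peroxisomal genes Acot3 exceeded Acot8 by 1.85, Acot5 exceeded it by 0.96 and Acot4 by 0.67, each without overlap. Acot6 is not compared. Of the 20 pairs of another type I gene with a type II gene, all 20 had the larger change in the type I gene without overlap. Among the 5 type I genes 5 of 10 pairs had no overlap, and among type II genes 1 of 6, that of Acot8 and Acot9.

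Within the cluster, genes of different compartments also gave near values. Acot2 and Acot5 differed in change by -0.047, and single soy arrays differed from single control arrays by -0.33 to 0.14 (exact p = 1.0). Acot1 exceeded Acot2 by 0.34, with such differences from 0.007 to 0.85 and no overlap (exact p = 0.10). Acot1 and Acot3 differed by -0.59 with overlap (exact p = 0.6), and their differences ran from -2.21 to 0.32, the widest of the 3 pairs. These p-values do not show that paralogues changed alike.

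Across the 6 arrays, which share the diet contrast and the scaling, Acot1 correlated most with Acot5 (Pearson r = 0.996) in the family. It was followed by Acot2 (0.978), Acot4 (0.955), Acot8 (0.953) and Acot3 (0.889), then by Acot12 (0.634), Acot13 (0.467) and Acot9 (-0.0992). Acot6 (0.584) is not ranked, because no soy array detected it. Outside the family, the 5 named genes closest to Acot1 were Crat (0.998), Ugt2b36 (0.997), Ehhadh (0.995), Pbld2 (0.995) and Zc3h14 (0.995), among 13490 genes well above background on all arrays. Crat, which encodes carnitine acetyltransferase, read 11.05, 10.40 and 11.49 in control and 12.79, 12.72 and 12.96 in soy livers. Like Acot1, it was lowest in control 2, highest of the controls in control 3, and above all of them in each soy liver. Ugt2b36, a glucuronosyltransferase gene, changed by 0.57 (adjusted p = 0.105) and Pbld2 by 0.67 (adjusted p = 0.0593). Zc3h14, whose protein binds poly(A) tails, changed by 0.27 (adjusted p = 0.340). None of those last 3 was called.

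The other enzymes that set the pool of acyl-CoA were described in lists chosen with earlier results of these data known. Of 8 other thioesterase and acyltransferase genes 0 were called (median 0.33). The largest changes without overlap were in Acnat2 and Acnat1, which encode peroxisomal N-acyltransferases, and in Baat, which conjugates bile acids. Acnat2 read 9.09, 8.68 and 11.57 in control and 11.60, 13.09 and 13.88 in soy livers, with control 3 and soy 1 almost touching. Its change was 3.08 (SE 0.82, adjusted p = 0.200), while Acnat1 changed by 1.52 (adjusted p = 0.141) and Baat by 0.56 (adjusted p = 0.390). With slide as a block, however, Acnat2 was called. Of 12 acyl-CoA synthetase genes, whose enzymes run the opposite reaction, 0 were called (median 0.03). Acsl1, the main long-chain synthetase of liver, changed by 0.76 (adjusted p = 0.278) and Acsl3 by 0.64 (adjusted p = 0.151). Acsl6, not above background in soy livers, was lower on each soy array (adjusted p = 0.333). Its other probe, well above background on no array, changed by 0.20 (adjusted p = 0.671).

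Among 8 genes for binding and breakdown of coenzyme A esters 0 were called (median -0.11). Acbd4 and Acbd5, which encode acyl-CoA binding proteins, changed by 0.66 (adjusted p = 0.0748) and 0.62 (adjusted p = 0.295), and Nudt8, a nudix hydrolase gene, by 0.44 (adjusted p = 0.155). The other 5 of the 8 genes were lower by any amount, as 51.2% of named genes were. Among them Acbd6 (-0.39) and Acbd3 (-0.27) were lower on each soy array. Of 11 genes for acyl carnitine formation and peroxisomal transport 1 was called, Crat, beside 0.458% of named genes. Crat changed by 1.84 (SE 0.25, adjusted p = 0.0387). Of the 11 genes 10 were higher by any amount (median 0.44), beside 48.8% of named genes. A dimmer Crat probe changed by 0.66 (adjusted p = 0.117). With 1 array left out Crat was called without control 2 and without control 3, and the other fits gave an adjusted p of 0.0952 to 0.142. Its change was 2.06 on slide 1 and 1.48 on slide 3. With slide as a block the change of Crat was 1.81, and the call was lost (adjusted p = 0.137). Crot, the peroxisomal octanoyltransferase gene, changed by 0.91 (adjusted p = 0.169) and Pex11a, of peroxisome division, by 0.73 (adjusted p = 0.0908). Cpt1a, which encodes the enzyme that lets long chains into mitochondria, moved the other way by -0.51 (adjusted p = 0.257), lower on each soy array.

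Of 24 genes known as PPARA targets, 3 were called by the brightest probe, all higher, beside 0.288% of named genes called higher. By any amount 20 were higher (median 0.44), beside 48.8% of named genes. In 15 of the 24 every soy array exceeded every control array, again beside 9.66% of named genes. Cyp4a14, a fatty acid hydroxylase gene, changed by 3.28 (adjusted p = 0.00775), Pdk4, which restrains pyruvate oxidation, by 1.87 (adjusted p = 0.0149) and Acaa1b, a peroxisomal thiolase gene, by 1.13 (adjusted p = 0.0191). Control 3 left out kept all 3 called, as did control 2. Without control 1 the call of Acaa1b was lost (but not that of Pdk4), and without any 1 soy array Cyp4a14 alone was still called (adjusted p = 0.0128 to 0.0430 over the 6 fits). Within slide 1 and slide 3 the changes were 2.96 and 3.48 for Cyp4a14, 1.80 and 1.90 for Pdk4, and 1.21 and 0.95 for Acaa1b. With slide as a block Cyp4a14 was still called (change 3.18, adjusted p = 0.0263). Pdk4 (1.84, adjusted p = 0.101) and Acaa1b (1.10, adjusted p = 0.135) then lost their calls. Cyp4a14 was well above background on 2 of the 3 control arrays. By any probe 4 genes of the list were called, beside 0.532% of named genes. The added gene was Acaa1a, another thiolase gene, whose dimmer probe changed by 0.84 (adjusted p = 0.0469). Its call was lost with slide as a block (adjusted p = 0.185) and with any 1 array left out (0.0689 to 0.152). Angptl4, which encodes a lipase inhibitor, was lower on every soy array, with a change of -0.64 (adjusted p = 0.0681).

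**Figure D4:**
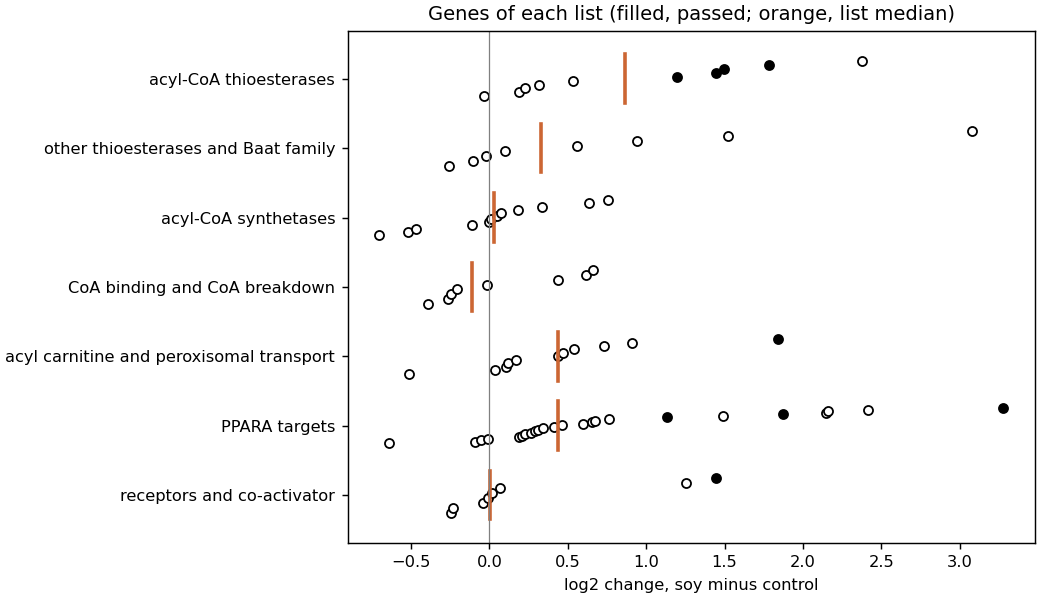
Change in log2 normalised signal (soy minus control, x axis) of each gene of the Acot family and of 6 related lists (y axis), with 1 point per gene, the called genes filled and a line at each list median. The family median of 0.86 lies to the right of the other medians, which run from -0.11 to 0.44.

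Among 8 receptor and co-activator genes 1 was called, beside 0.458% of named genes. Rxrg, which encodes a retinoid X receptor, read 7.85, 8.18 and 8.34 in control and 9.34, 9.87 and 9.50 in soy livers. Its soy values all lay above its control values. Rxrg rose by 1.44 (SE 0.18, adjusted p = 0.0294), and with 1 array left out that call stood for control 3 alone, whereas the remaining fits gave 0.0656 to 0.105. On slide 1 its change was 1.32 and on slide 3 it was 1.16. With slide as a block the change was 1.25, and the call was lost (adjusted p = 0.111). Ppara itself read 14.93, 14.72 and 14.25 in control and 14.92, 14.75 and 14.42 in soy livers. Its groups overlapped almost fully, with a change of 0.066 (adjusted p = 0.929). Pparg, better known from fat cells, changed by 1.25 (SE 0.23, adjusted p = 0.0810) without overlap. Rxrb changed by -0.23 (adjusted p = 0.477) without overlap, whereas Ppard (-0.01), Rxra (-0.039), Hnf4a (-0.25) and Ppargc1a (0.02) overlapped.

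Markers of 8 cell types that a liver sample may hold were read beside the Acot genes. In these lists 0 genes were called, beside 0.458% of named genes. Hepatocyte markers summed to a mean log2 signal of 20.9 in control and 20.8 in soy livers, a difference of -0.10, and all 6 genes were well above background. Such a sum compares arrays only and follows its strongest probe, here that of Serpina1a. Quantile normalization sets values by rank, so a sum led by probes this bright has little room to move. Gene by gene, 5 of the 6 hepatocyte markers were lower by any amount, with the largest change in Tat, a tyrosine aminotransferase gene (-0.76, adjusted p = 0.324), and the groups overlapped in all 6. The same difference was 0.23 for Kupffer cells (6 genes), 0.13 for endothelium, 0.11 for cholangiocytes, -0.14 for adipocytes, -0.22 for pancreas and 0.25 for red cells and neutrophils (5 genes each). Of the 6 Kupffer cell markers 5 were higher by any amount, while Marco, a scavenger receptor gene, changed by -0.73 (adjusted p = 0.589), and again all overlapped. The endothelial marker Clec4g was higher on each soy array (change 0.20, adjusted p = 0.546). Krt7 of cholangiocytes, detected on no soy array, was lower on each of them (adjusted p = 0.641), and Epcam was not detected. The adipocyte markers Adipoq, Plin1 and Ucp1 were well above background on no array. All 5 stellate cell markers and all 5 pancreas markers had a negative change, beside 51.2% of named genes, and all 5 of red cells and neutrophils a positive one. Among the pancreas markers the soy arrays detected Amy2a5 alone, and the groups overlapped in all 5. The stellate cell sum was 15.41, 15.19 and 15.32 in control and 15.11, 15.11 and 15.25 in soy livers, which follows the Dcn probe. Col1a1 changed by -0.997 and Col3a1 by -0.937, both without overlap, as 10.8% of named genes were in that direction, and neither called (adjusted p = 0.318 and 0.271). The part of these markers in the Acot changes was not tested.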

How the data were processed

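The authors scanned single-colour arrays of 6 livers and deposited Feature Extraction 11.5.1.1 output, in which the median intensity of spots and local background is uncorrected and unscaled. They also deposited a log2 table of the same arrays, with medians of 7.33 to 7.34 over spots. Averaged per probe, where its medians were 7.2, it lay within 0.0705 of the present values. The methods name median signals, limma and Benjamini-Hochberg adjustment, and no normalization.

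Here median signals were corrected by normexp (offset 50), quantile normalized and log2 transformed. Outlier and control spots were left out and spots of a probe averaged. Soy was tested against control with limma 3.58.1 (R 4.3.3), adjusting over 56605 probes. RefSeq accessions gave symbols for 58.3% of probes. The arrays were annotated on mm9, and promoters came from RefSeq on GRCm38.p6. Python 3.11.15, pandas 2.3.3, scipy 1.17.1 and matplotlib 3.10.9 were used. The fit was tested on simulated data.

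The members, the 15 gene lists and the tests were chosen with earlier results of these data known. All Acot probes, all 8 receptor genes and the 5 genes most correlated with Acot1 were named, and from each other list up to 3 genes by size of change, called genes first, then those without overlap, so that a list may give fewer or none. Numb, Riox1 and the other flanking genes were named by position, and Alb, Tat, Marco, Angptl4, Cpt1a, Acaa1a, Acbd3, Acbd6 and some undetected markers after their values were seen. Alternatives were other background corrections, normalizations, filters, eBayes settings and blocks, the deposited log2 values, the mean of a gene's probes, a call by adjusted p without the fold limit, and fits lacking 1 array. With 3 arrays per group, their number limits the precision.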

Additional observations from a re-analysis of the deposited data

How the results depend on the processing

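In the Acot family 4 genes were called. The count was 1 with a normexp offset of 16 and 1 with the replicate number as a block, and in both Acot2 was the gene that was called. With slide as a block it was 0, where 0.0442% of all probes (25) were called. Taking the mean of a gene's probes gave 2, Acot1 and Acot2 (adjusted p = 0.0758 for Acot4 and 0.107 for Acot5, whose change dropped to 0.63 from 1.49), and leaving out each array in turn gave 0 to 4 (1 without control 1, 3 without control 2, 4 without control 3, and 0 without any 1 of the soy arrays). The processed signal and the test of only the probes well above background each gave 5, adding Acot3, where 23.2% and 1.54% of the probes tested were called. The other settings gave 4. By the brightest probe or the mean of probes, directions of Acot1, Acot2, Acot3, Acot4, Acot5, Acot8, Acot12 and Acot13 held in every setting. The dimmer Acot5 probe stayed below 0, from -0.32 with slide as a block to -0.084 with a 75th-percentile shift. Acot6 turned to -0.06 as the mean of its probes. Acot9 turned to 0.017 with the processed signal, 0.044 with a 75th-percentile shift and 0.048 with slide as a block, and with 1 array left out it ran from -0.21 without soy 3 to 0.080 without soy 2, above 0 also without soy 1 (0.024). The cause of these differences was not tested. Nothing in the labels pairs mice by replicate number. Deviations of arrays with the same number correlated at 0.116, -0.0574 and 0.106 for numbers 1, 2 and 3, where the arrays of numbers 1 and 3 also shared a slide, so number and slide cannot be told apart there.

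Over all probes 198 were called. The count was 77 with the offset of 16, 13138 with the processed signal, 299 with the 75th-percentile shift, 497 of the probes well above background, 78 with the replicate block, 25 with the slide block, and 25 to 203 with 1 array left out (for the control replicates 1, 2 and 3 in order 102, 71 and 203, for those of soy 50, 25 and 27). The processed signal and the 75th-percentile shift each moved the median change of all probes to 0.13, so the Acot changes under them are relative to that. In the 6 related lists 5 genes were called, against 3 with the offset of 16, 16 with the processed signal, 10 with only probes well above background, 2 with the slide block (Cyp4a14 and Acnat2) and 1 to 5 with 1 array left out. Of all 45 pairs, those of Acot6 included, 28 to 35 were without overlap under the settings run for them, beside 32. Slide 2 holds a lone soy array, so it adds nothing to the slide block. Signal over background limited the reading of a fall in Acot6.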
